A study of Homo sapiens with 10 samples.

Results

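The integrin subunits of tubule cells examined here are 10 genes that encode cell-surface receptors for extracellular matrix: ITGA2, ITGA3, ITGA5, ITGA6, ITGAV, ITGB1, ITGB3, ITGB4, ITGB6 and ITGB8. They were taken by gene symbol from a table of 61587 genes, of which each symbol matched 1, and all 10 were among the 19006 genes that reached 200 counts in total, the limit for testing. The table comes from bulk RNA-seq, and the cells were RPTEC/TERT1, a human line of proximal tubular epithelium made immortal with telomerase. There were 5 control samples, mock-irradiated at 0 Gy, and 5 samples irradiated with 10 Gy of gamma rays, and RNA was collected 7 days later in both groups. Replicates are numbered 1 to 5 in both groups, and samples of the same number deviated together and were treated as pairs. Replicates 4 and 5 were closer to each other than any other replicates were in both groups (chi-square per gene 11.7 in control and 6.83 in irradiated samples, against 30.9 to 163 for all other pairs of samples in a group), so that the 5 pairs may not be equally independent. Without replicate 4 or without replicate 5, 8 of the 10 subunits were called. Nothing in the labels says that they came from separate cultures, so p-values measure the spread between these samples, which may be technical. The study irradiated the cells to model the senescent state of injured tubules, and an immortalised line is limited as a model of the kidney. The methods name RPTEC/TERT1, while the cell line label carries a different last number in each sample, from RPTEC/TERT1 to RPTEC/TERT10, and all were taken here as the same line. The total of gene counts per sample was 78081911 to 131555873 for controls and 66269311 to 101594948 for irradiated cells.

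Integrins work as heterodimers of 1 alpha and 1 beta subunit. The alpha and beta subunits together set which ligand is bound, and the short cytoplasmic tails of many beta subunits link it to the actin cytoskeleton through talin and kindlin. The long tail of the ITGB4 product binds plectin in hemidesmosomes instead, which connects to keratin filaments, and the tail of the ITGB8 product diverges from those of the other beta subunits. ITGB1 is the common partner of many alpha subunits, whereas ITGAV pairs with the products of ITGB1, ITGB3, ITGB5, ITGB6 and ITGB8. In epithelia the receptors built with ITGB6 and ITGB8 bind latent TGF-beta, the stored form of a cytokine that drives fibrosis, and can release or expose it. Members differ in their promoters, of which 7 of the 10 members were in the RefSeq table of GRCh38.p14 (ITGA3, ITGB3 and ITGB4 were not). The sequences of 4 genes are shown from 150 bases before a start site to 10 after it, 5′ to 3′ on the gene's own strand, because these genes return below as the member with the highest fitted change (ITGB8), the alternative partner of ITGAV that was not called (ITGB6), the single member with an AP-1 motif (ITGA5) and the laminin gene that rose most (LAMA3). Capitals mark matches to the AP-1 motif TGACTCA or the GC box GGGCGG on either strand, and the window of ITGB6 holds neither.
ITGB8: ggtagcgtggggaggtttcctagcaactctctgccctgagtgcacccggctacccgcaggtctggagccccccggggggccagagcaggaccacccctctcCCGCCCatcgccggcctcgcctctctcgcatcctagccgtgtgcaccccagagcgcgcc
ITGB6: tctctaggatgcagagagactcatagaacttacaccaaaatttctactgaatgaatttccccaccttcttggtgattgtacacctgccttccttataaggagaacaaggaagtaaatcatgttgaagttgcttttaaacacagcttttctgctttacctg
ITGA5: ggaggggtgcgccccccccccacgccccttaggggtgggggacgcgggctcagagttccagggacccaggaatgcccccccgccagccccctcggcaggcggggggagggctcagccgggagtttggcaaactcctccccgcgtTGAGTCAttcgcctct
LAMA3: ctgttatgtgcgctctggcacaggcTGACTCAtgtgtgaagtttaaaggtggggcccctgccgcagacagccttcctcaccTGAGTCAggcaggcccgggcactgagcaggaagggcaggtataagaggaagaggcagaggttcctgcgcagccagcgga
They lie at chr7:20330750-20330909 on the plus strand, chr2:160200263-160200422 on the minus strand, chr12:54419257-54419416 on the minus strand and chr18:23872870-23873029 on the plus strand. The AP-1 motif was present in 3.13% of 35116 promoters of this length, the cyclic AMP response element TGACGTCA in 1.56% and the GC box in 37.4%. The 7 members have 10 start sites in the table, with 2 each for ITGA6, ITGAV and ITGB1. Of these 10 windows, the AP-1 motif was in 1, the cyclic AMP response element in 0 and the GC box in 4. The window of LAMA3 begins at an internal start of that gene, which runs from 23689453 to 23956222 on chromosome 18, whereas its counts cover the whole gene. It held 2 AP-1 matches. Of the 8 laminin genes in the table, 2 held the AP-1 motif at any start, LAMA3 and LAMB3. LAMC1, LAMB1, LAMA5 and LAMB2 (log2 fold change 0.15, edgeR adjusted p = 0.0373), which also rose, did not. A match is a description of the letters, and binding was not measured in these samples.

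Most of these subunits were higher after irradiation. Of the 10 members, 8 were higher and 1 was lower in irradiated RPTECs, and 1 was not called (quasi-likelihood test of edgeR, adjusted p under 0.05 after Benjamini-Hochberg correction over all 19006 genes). Among all genes tested, 46.6% changed, 23.9% in the upward and 22.7% in the downward direction, so that 51.4% of the changed genes were higher. Scaled by library size alone, 19.0% were higher and 31.0% lower (38.0% of the changed genes higher), while the members again counted 8 higher and 1 lower. The median log2 fold change of the 10 members was 0.68, beside -0.01 for all genes. All 5 irradiated samples lay above all 5 controls for 6 members and below them for 0 members, where these shares over all genes were 14.6% and 12.0%. Expression is given below as CPM, a gene's counts relative to the total of its sample after scaling by the trimmed mean of M values (TMM), and samples are listed in the order of replicates 1 to 5. The plot of members by sample shows the same values.

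**Figure D1:**
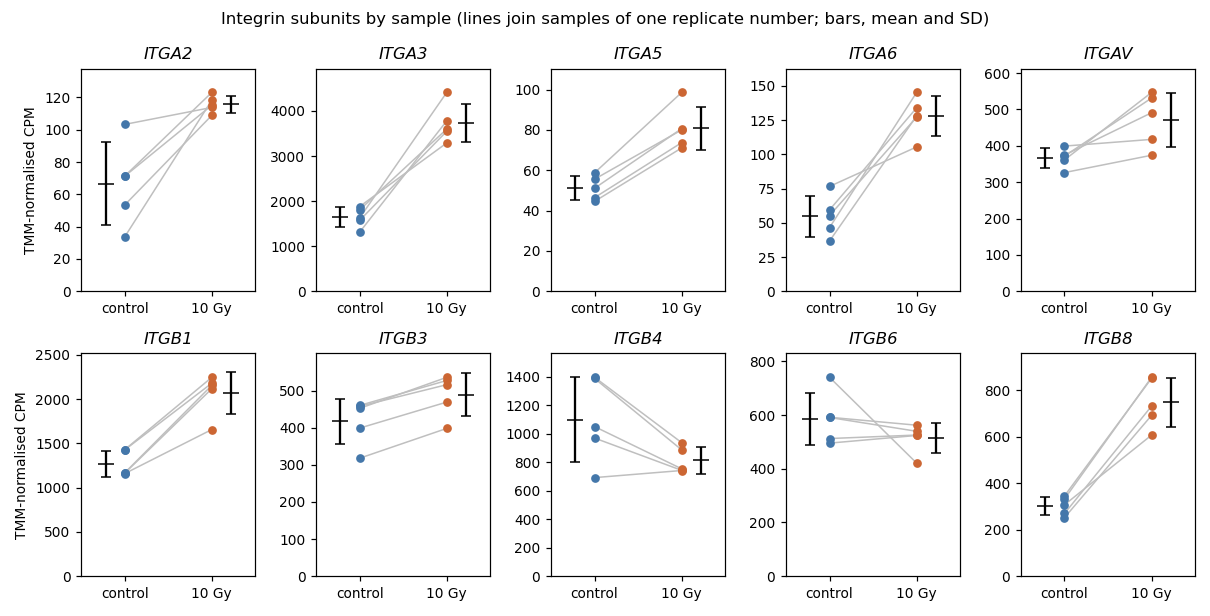
TMM-normalised CPM of the 10 integrin subunits in each of 5 control and 5 irradiated (10 Gy) samples, on linear axes from 0. Points are samples, grey lines join samples of the same replicate number, and bars give the mean and SD. ITGB8 lies between 251.6 and 345.0 CPM in controls and between 606.6 and 854.9 in irradiated samples, whereas the groups overlap for ITGAV, ITGB3, ITGB4 and ITGB6.

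ITGB1, on chromosome 10 from 32887273 to 33005792 (GRCh38, as all gene coordinates here), encodes the beta subunit shared by the collagen, laminin and fibronectin receptors. It was at 1164, 1159, 1167, 1429 and 1427 CPM in control samples and at 2118, 1657, 2157, 2247 and 2181 CPM in irradiated samples. The irradiated sample of replicate 2 was the lowest of its group and still above every control. The log2 fold change was 0.71 (standard error 0.07, edgeR adjusted p = 0.000233).

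ITGA3 (chromosome 17, 50055968 to 50090481) encodes the alpha subunit that with ITGB1 forms an epithelial receptor for laminins. Control samples held 1311, 1879, 1628, 1806 and 1573 CPM, and irradiated samples 3780, 3290, 4411, 3599 and 3549 CPM. The lowest irradiated sample thus lay well above the highest control. This was a 2.28-fold rise, or 1.19 on the log2 scale (standard error 0.11, edgeR adjusted p = 0.000162).

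ITGA2 (chromosome 5, 52989340 to 53094779), the alpha subunit of a collagen receptor, was at 53.4, 103, 33.7, 71.3 and 71.2 CPM in controls and at 109, 114, 118, 123 and 115 CPM after irradiation. Controls ranged widely, with replicate 3 lowest and replicate 2 just under the irradiated samples, while the irradiated samples lay close together. ITGA2 rose by a log2 fold change of 0.89 (standard error 0.20, edgeR adjusted p = 0.00894). ITGA5 (chromosome 12, 54395261 to 54419266), which with ITGB1 makes the main fibronectin receptor, was at 55.6, 44.6, 58.7, 51.1 and 46.4 CPM in controls and 80.0, 71.1, 98.6, 80.6 and 73.7 CPM in irradiated samples. Its groups did not overlap, and the log2 change was 0.65 (standard error 0.04, edgeR adjusted p = 4.21e-05).

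ITGA6 and ITGB4 encode the 2 chains of the hemidesmosome integrin, a laminin receptor, and they moved in opposite directions. ITGA6 (chromosome 2, 172427354 to 172506459) was at 36.7, 76.6, 46.5, 59.4 and 55.3 CPM in controls and at 128, 105, 145, 134 and 127 CPM after irradiation. The groups lay apart, by 1.26 on the log2 scale (standard error 0.18, edgeR adjusted p = 0.000954). ITGB4 (chromosome 17, 75721328 to 75757818) was at 1396, 692, 1388, 1050 and 969 CPM in controls and at 937, 742, 886, 754 and 743 CPM in irradiated samples. Control replicate 2 was lower than every irradiated sample, so that the groups overlapped and 4 of 5 pairs fell. The log2 fold change of ITGB4 was -0.40 (standard error 0.11, edgeR adjusted p = 0.0174), and the call was lost without the replicate block (adjusted p = 0.0673) and without replicate 1, 4 or 5 (adjusted p = 0.0680, 0.0614 and 0.0563). ITGA6 also pairs with ITGB1, and counts of genes do not show which chains were paired.

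Of the chains that pair with ITGAV, ITGB8 rose most. ITGB8 (chromosome 7, 20330702 to 20415754) was at 269, 307, 251.6, 345 and 332 CPM in controls and at 731, 607, 691, 851 and 855 CPM in irradiated samples. The samples of each group lay close together and the groups lay far apart. The rise was 2.48-fold, a log2 fold change of 1.31 (standard error 0.08, edgeR adjusted p = 2.83e-05). This was the highest fitted value of the 10 members, next to 1.26 for ITGA6, and without replicate 2 the order turned (1.40 for ITGB8 and 1.46 for ITGA6). ITGB6 (chromosome 2, 160099667 to 160200313), the epithelial receptor chain best known for activating latent TGF-beta, was at 513, 496, 741, 592 and 591 CPM in controls and at 526, 524, 421, 562 and 540 CPM in irradiated samples. Replicate 3 was the highest control and the lowest irradiated sample, and the other pairs differed little. Its log2 fold change of -0.18 (standard error 0.13, edgeR adjusted p = 0.276) was not called, and it was -0.02 without replicate 3. Exons of ITGB6 share 16.7% of their bases with a second gene model on the same strand (ENSG00000285155), and reads there are left out of the counts, so that its level can be too low.

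ITGAV itself (chromosome 2, 186590010 to 186680901) rose less than ITGB8. It was at 374, 326, 399, 361 and 372 CPM in controls and 491, 374, 418, 547 and 531 CPM in irradiated samples. Irradiated replicate 2 lay within the control range, and all 5 pairs were higher after irradiation. The log2 fold change was 0.35 (standard error 0.08, edgeR adjusted p = 0.00973). ITGB3 (chromosome 17, 47253827 to 47313743), the beta chain of the vitronectin receptor, was at 457, 318, 399, 459.9 and 452 CPM in controls and at 516, 398, 469, 527 and 536 CPM in irradiated samples. Within each pair the irradiated sample was higher, by a log2 fold change of 0.23 (standard error 0.05, edgeR adjusted p = 0.00414), although the groups overlapped. Without the replicate block the change of ITGB3 was not called (edgeR adjusted p = 0.140). ITGB3 shares 33.2% of its exon bases on the same strand with another gene model (ENSG00000259753), so that its level can also be too low.

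Levels of different genes were compared per length, as CPM per kb of merged exons. In control samples the order was ITGA3 (167.3 ± 22.7, SD, n = 5), ITGB4 (162.5 ± 44.2), ITGB6 (101.3 ± 16.8), ITGB1 (87.2 ± 10.0), ITGB3 (61.1 ± 8.9), ITGB8 (19.9 ± 2.6), ITGAV (19.0 ± 1.4), ITGA2 (8.43 ± 3.26), ITGA6 (8.22 ± 2.24) and ITGA5 (6.94 ± 0.81). The first 4 overlapped each with its neighbour, as did ITGB8 with ITGAV and the last 3 with each other, whereas ITGB1 lay apart from ITGB3, ITGB3 from ITGB8 and ITGAV from ITGA2. In irradiated samples ITGA3 stood alone at the top (380.1 ± 43.0 CPM per kb, SD, n = 5), followed by ITGB1 (142.3 ± 16.2), ITGB4 (120.2 ± 13.7), ITGB6 (89.0 ± 9.4), ITGB3 (71.6 ± 8.4), ITGB8 (49.3 ± 7.0), ITGAV (24.4 ± 3.8), ITGA6 (19.2 ± 2.2), ITGA2 (14.7 ± 0.7) and ITGA5 (10.9 ± 1.5). Here the pairs of neighbours that overlapped were ITGB1 with ITGB4, ITGB6 with ITGB3 and ITGAV with ITGA6. The order depends on the length used. Scaled by the longest transcript, ITGB1 ranked above ITGB4 in controls (226.1 against 186.4 CPM per kb) and ITGAV above ITGB8 (46.1 against 33.5 CPM per kb), and in irradiated samples ITGB8 and ITGB3 lay together at 83.3 and 82.3 CPM per kb.

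Ratios between subunits within a sample do not depend on how samples are scaled to each other. A total of 10 ratios were compared, and 6 differed between groups in an exact 2-sided permutation test with adjustment over the 10, with 3 higher and 3 lower after irradiation. The smallest p that 5 samples against 5 can give is 0.00794. With 1 replicate left out the smallest p is 0.0286, and 8 ratios passed without replicate 2 and 0 without any other. The ratio of ITGB6 to ITGB8, both per kb of merged exons, was 4.98, 4.23, 7.71, 4.50 and 4.66 in control samples and 1.88, 2.26, 1.60, 1.73 and 1.65 in irradiated samples. This was a log2 change of -1.49 with no overlap between groups (exact permutation p = 0.00794, adjusted p = 0.0198). The ratio of ITGAV to ITGB8 was 1.09, 0.83, 1.24, 0.82 and 0.88 in controls and 0.53, 0.48, 0.47, 0.50 and 0.49 in irradiated samples, a log2 change of -0.96 (exact permutation p = 0.00794, adjusted p = 0.0198). ITGAV fell against ITGB1 as well (log2 change -0.35, adjusted p = 0.0198 in the exact permutation test), and rose against ITGB6 (0.53, adjusted p = 0.0265 in the same test).

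The ratio of ITGA6 to ITGB4 rose most, from 0.0266, 0.112, 0.0339, 0.0573 and 0.0577 in controls to 0.138, 0.144, 0.166, 0.180 and 0.173 in irradiated samples, a log2 change of 1.65 (exact permutation p = 0.00794, adjusted p = 0.0198). Control replicate 2 came closest to the irradiated samples without reaching them. ITGA3 rose against ITGB1 (log2 change 0.48, adjusted p = 0.0265 in the exact permutation test), and ITGA6 against ITGB1 missed the threshold (0.55, adjusted p = 0.0567). The ratios of ITGA2 to ITGB1 (log2 change 0.19, adjusted p = 0.573), ITGA5 to ITGB1 (-0.05, adjusted p = 0.698) and ITGAV to ITGB3 (0.12, adjusted p = 0.268) did not pass the same exact test. With the 5 replicate pairs tested by sign changes, the smallest p possible is 0.0625, so 0 of the 10 ratios could pass.

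Among the 4 beta chains ITGB3, ITGB5, ITGB6 and ITGB8, which pair with ITGAV, ITGB8 made up 8.72% ± 1.49 (SD, n = 5) of their summed CPM per kb in controls and 19.4% ± 1.4 in irradiated samples. In single samples its share was between 6.47% and 10.3% before and between 17.4% and 20.9% after irradiation. Of these 4, ITGB6 had the highest share in both groups, at 43.9% ± 3.6 in controls and 35.2% ± 3.0 in irradiated samples (SD, n = 5 each). ITGB1, which pairs with ITGAV and with many other alpha subunits, was not counted in the sum. It was at 87.2 CPM per kb in controls and 142.3 in irradiated samples, against 101.3 and 89.0 for ITGB6. With ITGB1 counted, every share would be smaller, and ITGB6 would not be highest on average in irradiated samples. The lengths keep exon bases shared with other gene models, 33.2% for ITGB3 and 16.7% for ITGB6, where reads are left out. The order of ITGB6 and ITGB3 can therefore depend on these bases. The share of ITGB5 was 20.8% ± 1.0 against 17.04% ± 2.12, and that of ITGB3 was 26.6% ± 3.2 against 28.3% ± 1.7. Scaled by the longest transcript the share of ITGB8 was 11.3% in controls and 24.5% in irradiated samples. Shares of RNA are not shares of receptors at the cell surface, which were not measured here.

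**Figure D2:**
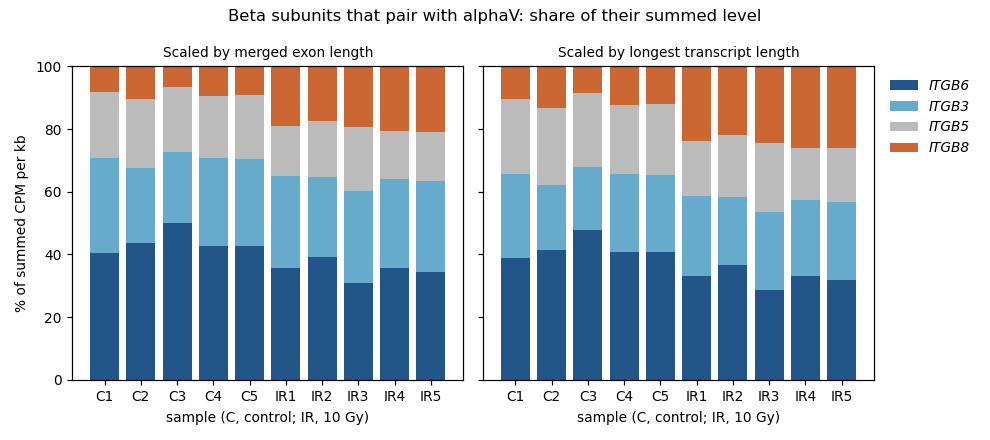
Stacked bars of the percent that ITGB6, ITGB3, ITGB5 and ITGB8 take of their summed CPM per kb in each sample (C, control; IR, 10 Gy; numbers, replicates). The left panel scales by merged exon length and the right panel by the longest transcript. The segment of ITGB8 covers at most 10.3% of the left panel's bar in controls and at least 17.4% in irradiated samples.

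The table holds 16 other integrin subunits, of which 8 had enough counts to be tested. Of these 3 were higher, 3 lower and 2 not called, with a median log2 fold change of -0.09. For this list and those below, the shares over all genes tested were 23.9% higher and 22.7% lower. ITGB5 was the most abundant of them, at 299.9, 284, 349, 307 and 315 CPM in controls and 265, 272, 310, 270 and 277 CPM in irradiated samples, which gave a log2 change of -0.16 (standard error 0.04, edgeR adjusted p = 0.0181). All 5 pairs fell although the groups overlapped. The call was lost without the replicate block (edgeR adjusted p = 0.0965) and without replicate 1, 4 or 5 (0.0549, 0.0789 and 0.0775). ITGA1, the alpha chain of a second collagen receptor, fell by a log2 fold change of -0.42 (standard error 0.07, edgeR adjusted p = 0.00217), in the opposite direction to ITGA2. ITGA7, of a laminin receptor known from muscle, fell from 1.25 ± 0.41 to 0.861 ± 0.301 CPM (SD, n = 5 each, log2 fold change -0.55, edgeR adjusted p = 0.00449), a call lost without the replicate block (adjusted p = 0.153). ITGA10, of a collagen receptor known from cartilage, rose from 0.680 ± 0.235 to 1.10 ± 0.14 CPM (SD, n = 5 each, log2 fold change 0.73, edgeR adjusted p = 0.00548). ITGA9 (log2 fold change -0.54, adjusted p = 0.219) and ITGAE (-0.02, adjusted p = 0.817) were not called.

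ITGB2 and ITGAM, the beta and alpha chains of a receptor best known from leucocytes, both rose. ITGB2 was at 13.0, 11.6, 14.2, 15.4 and 17.8 CPM in controls and at 34.8, 26.8, 42.5, 28.2 and 29.7 CPM in irradiated samples (log2 fold change 1.16, standard error 0.12, edgeR adjusted p = 0.000276). ITGAM was at 0.037, 0.079, 0.030, 0.056 and 0.017 CPM in controls, where it had 2 to 11 counts a sample, and at 1.37, 0.866, 0.853, 1.71 and 1.38 CPM in irradiated samples, where it had 58 to 157. Its log2 fold change of 4.71 (standard error 0.31, edgeR adjusted p = 3.91e-05) is the largest of the 18 subunits tested and rests on few counts in controls. Neither gene's groups overlapped. Of the 8 leucocyte markers examined, which include these 2 genes, PTPRC, the pan-leucocyte antigen CD45, was at 0.185 to 0.453 CPM in controls and 0.269 to 0.540 CPM in irradiated samples and was not called (log2 fold change 0.27, edgeR adjusted p = 0.283). The remaining markers CD68, LYZ, CD3E, CD79A and ITGAL summed to 27, 67, 3, 79 and 23 counts over all 10 samples, although CD68 shares 81.6% of its exon bases with another gene model on the same strand (ENSG00000264772), so that its count can be far too low. The 8 markers summed to between 12.1 and 18.2 CPM in controls and between 28.1 and 44.1 CPM in irradiated samples, most of it ITGB2, the most abundant of them. Not tested for low counts were ITGA2B (185 counts over all samples), ITGA11 (158), ITGA4 (82), ITGB7 (27), ITGAL (23), ITGAX (12), ITGA8 (3) and ITGAD (3). Exons on the other strand cover 42.3% of the exon bases of ITGB7, 34.7% of those of LYZ and 26.4% of those of ITGA4. Reads there are left out, so that these counts can be too low.

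**Figure D3:**
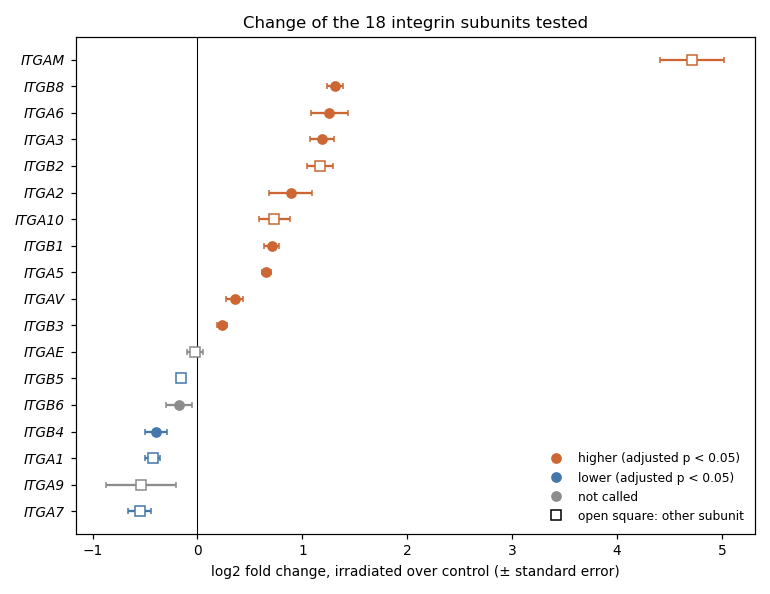
Log2 fold change, irradiated over control, of the 18 integrin subunits tested, with standard errors from edgeR. Filled circles are the 10 members and open squares other subunits, and colour gives the call. Subunits higher in irradiated cells run from ITGB3 (0.23) to ITGAM (4.71), and the lowest value is that of ITGA7 (-0.55).

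Genes for the ligands of these receptors changed too, with the largest rises named here among the laminin genes. Of 9 laminin genes, 6 rose, 2 fell and 1 was not called, and their median log2 fold change was 0.42. LAMA3 was at 83.1, 199, 134, 165 and 130.3 CPM in controls and at 1035, 767, 1501, 1361 and 1109 CPM in irradiated samples. LAMB3 was at 138, 165, 209.9, 193 and 153 CPM in controls and at 724, 526, 999.7, 922 and 726 CPM in irradiated samples. Both encode chains of a basement membrane laminin bound by the receptors built from ITGA3 with ITGB1 and from ITGA6 with ITGB4, and for both the groups lay far apart. Their log2 fold changes were 3.05 (LAMA3, standard error 0.24, edgeR adjusted p = 6.99e-05) and 2.16 (LAMB3, standard error 0.10, edgeR adjusted p = 1.56e-05). LAMC1, the common gamma chain of most other laminins, rose by 0.65 on the log2 scale (edgeR adjusted p = 0.00425). LAMA1 (-1.60, edgeR adjusted p = 0.00201) and LAMA2 (-1.38, edgeR adjusted p = 0.00186), alpha chains of other laminins, fell.

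Of 9 collagen genes 6 were tested, with 3 higher, 2 lower and 1 not called. The chains of basement membrane collagen IV, COL4A1 and COL4A2, were the most abundant and fell, by log2 fold changes of -0.68 (edgeR adjusted p = 0.000270) and -0.29 (edgeR adjusted p = 0.00907). The call of COL4A2 was lost without the replicate block (edgeR adjusted p = 0.0517). COL1A1, of fibrillar collagen I, rose from 18.9 ± 3.3 to 32.2 ± 4.7 CPM (SD, n = 5 each), whereas its partner chain COL1A2 had 23 counts over all samples. COL6A1 rose by 0.31 on the log2 scale (edgeR adjusted p = 0.0223), and its call was lost in 5 alternatives. Of 12 ligands of the ITGAV and ITGA5 receptors and related proteins, 11 were tested, 6 rose, 1 fell and 4 were not called. Fibronectin, encoded by FN1, was at 106, 130.3, 177, 122 and 139 CPM in controls and at 354, 447, 498, 476 and 516 CPM in irradiated samples, which gave a log2 change of 1.77 (standard error 0.07, edgeR adjusted p = 9.22e-06). MFGE8 (log2 fold change 1.77), a bridge to dying cells, FBN1 (1.75), of the microfibrils, and CCN2 (1.20), also known as connective tissue growth factor, rose as well, and TGFBI fell (-0.40, edgeR adjusted p = 0.0195, not called without the replicate block at 0.158).

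On the cytoplasmic side there was no common direction. Of 27 genes that link integrins to actin, 11 rose, 7 fell and 9 were not called, and the median log2 fold change was 0.09. Over all genes tested, 23.9% rose and 22.7% fell, so that the falls here are near that share. The kindlin genes went opposite ways, with FERMT1 higher (log2 fold change 0.85, edgeR adjusted p = 0.00267) and FERMT2 lower (-0.51, edgeR adjusted p = 7.84e-05), as did the adaptors paxillin (PXN, 0.48), vinculin (VCL, 0.35) and TGFB1I1 (0.80) against the tensins TNS1 (-1.41), TNS2 (-1.38) and TNS3 (-0.84). The fourth tensin of the list, TNS4, rose from 0.0795 ± 0.0675 to 0.880 ± 0.459 CPM (SD, n = 5 each, log2 fold change 3.35, edgeR adjusted p = 0.000933), and the adaptor zyxin (ZYX) fell (-0.25, edgeR adjusted p = 0.0176). TNS1 fell from 104.2 ± 26.5 to 39.0 ± 8.8 CPM (SD, n = 5 each, edgeR adjusted p = 7.73e-05). The talin genes TLN1 (log2 fold change -0.11) and TLN2 (-0.01) were not called. Of 8 genes of hemidesmosomes and of the tetraspanins that bind laminin receptors, 4 rose, 0 fell and 4 were not called. COL17A1, the transmembrane collagen of hemidesmosomes, rose from 130.9 ± 15.5 to 346.2 ± 58.3 CPM (SD, n = 5 each, log2 fold change 1.39, edgeR adjusted p = 1.59e-05), and plectin (PLEC) rose by 0.59 on the log2 scale (edgeR adjusted p = 0.00243), while ITGB4, which binds both, fell. The tetraspanins CD82 (log2 fold change 1.41) and CD151 (0.27) also rose.

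Genes of latent TGF-beta, which the ITGB6 and ITGB8 receptors act on, were mixed. Of 11 such genes 10 were tested, with 3 higher, 3 lower and 4 not called, and a median log2 fold change of -0.10. These counts are near the shares over all genes tested, 23.9% higher and 22.7% lower. LTBP1, which tethers the latent complex to matrix, rose from 1.76 ± 0.44 to 3.26 ± 0.58 CPM (SD, n = 5 each), and the receptor gene TGFBR2 rose from 205.6 ± 24.7 to 364.7 ± 31.3 CPM (log2 fold change 0.83, edgeR adjusted p = 8.19e-05). TGFB2 fell by a log2 fold change of -1.05 (edgeR adjusted p = 0.00231), as did the inhibitor SMAD7 (-0.53, edgeR adjusted p = 0.000276) and LTBP3 (-0.39, edgeR adjusted p = 0.000716). The call of LTBP3 was lost without the replicate block (edgeR adjusted p = 0.0572). TGFB1 was not called (log2 fold change -0.20, edgeR adjusted p = 0.0566).

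**Figure D4:**
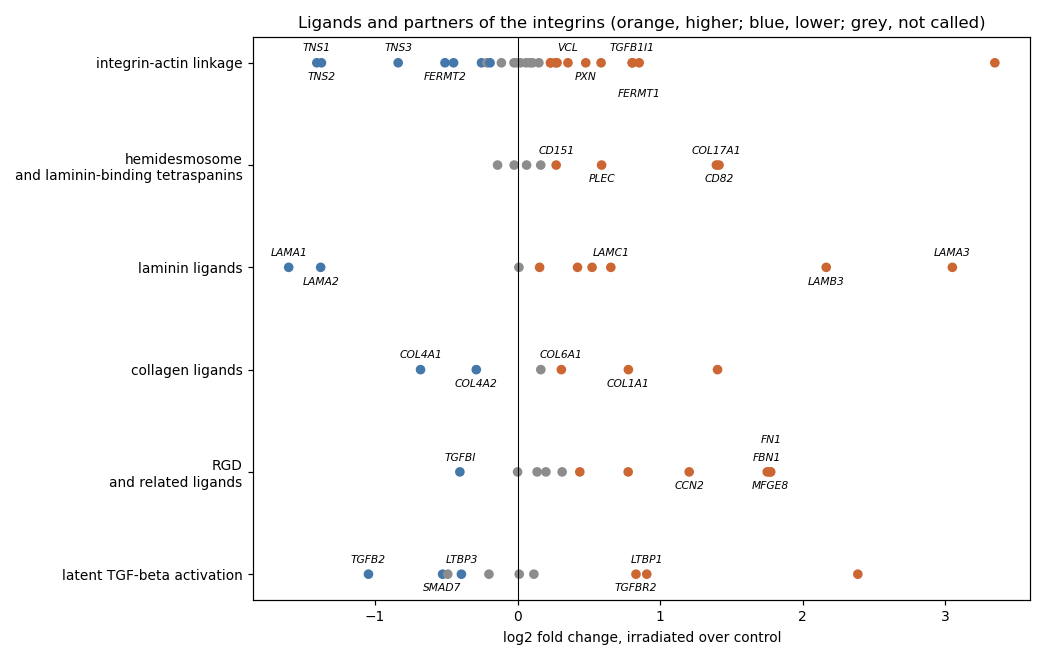
Log2 fold change, irradiated over control, of tested genes in 6 lists of integrin ligands and partners. Points are genes, coloured by call as in the plot of subunit changes, and labels name the largest called changes in a list among genes with a mean of at least 1 log2 CPM. LAMA3 and LAMB3 lie farthest to the right among the labelled genes, at 3.05 and 2.16. The unlabelled point at 3.35 is TNS4, which lies below that mean and was named after its value was seen.

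Cell cycle genes were lower in irradiated samples, and among controls they were lower in replicates 1 and 3. All 15 cell cycle genes examined fell, with a median log2 fold change of -1.91, and 11 of them were still called without replicate 4 or without replicate 5 and 13 without replicate 2. Among them were MKI67 (-2.57), FOXM1 (-2.27), AURKB (-2.13) and CDK1 (-2.10). CDKN1A, which encodes the cycle inhibitor p21 and served as a check of irradiation, was at 80.9, 80.3, 208, 66.7 and 74.3 CPM in controls and between 584.4 and 768.4 CPM in irradiated samples (log2 fold change 2.92, standard error 0.24, edgeR adjusted p = 9.11e-05). Averaged over these 15 genes, expression stood at 4.04, 5.34, 3.95, 5.41 and 5.33 log2 CPM for controls 1 to 5 and at 2.72 to 3.37 for irradiated samples. Control replicates 1 and 3, the controls with the lowest cell cycle values, had the lowest ITGA2 and ITGA6 and the highest ITGB4 of the controls, whereas the irradiated samples, lower still in the cell cycle list, had higher ITGA2 and ITGA6 and, except against control replicate 2, lower ITGB4. ITGB8 was also lowest in these controls and high in the irradiated samples. The part of cell cycle differences in the irradiation changes was not tested.

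**Figure D5:**
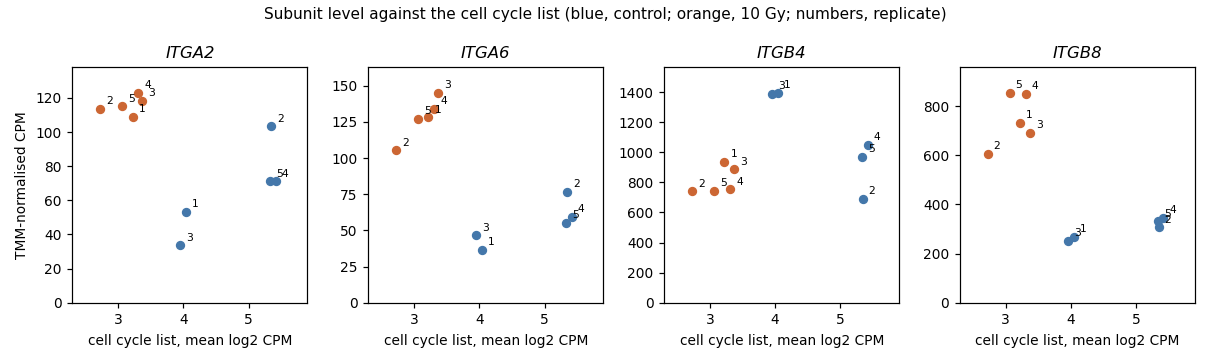
TMM-normalised CPM of ITGA2, ITGA6, ITGB4 and ITGB8 (vertical axes, linear from 0) against the mean log2 CPM of the 15 cell cycle genes (horizontal axes) in each sample. Blue points are controls, orange points irradiated samples, and numbers are replicates. Controls 1 and 3, near 4 on the horizontal axis, lie low for ITGA2 and ITGA6 and high for ITGB4 among controls.

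The genes most like ITGB8 and ITGB4 over the 10 samples were sought among 12812 genes by Pearson's correlation of log2 CPM, given here as a description since the points share the 2 groups and replicate numbers. For ITGB8, the member with the highest fitted change over all 5 pairs, they were FGD6 (r = 0.995), ENTPD7 (r = 0.995) and LRP12 (r = 0.994), which rose by log2 fold changes of 1.44, 0.85 and 0.74. For ITGB4, the called member that fell, they were NOL4L (r = 0.953), FAM162A (r = 0.952) and UNC5CL (r = 0.950). FAM162A and UNC5CL fell by log2 fold changes of -0.31 (edgeR adjusted p = 0.0102) and -0.69 (edgeR adjusted p = 0.0322), and NOL4L was not called (-0.12, edgeR adjusted p = 0.112).

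The label of the cells was checked against markers. Of 8 tubule epithelial markers 7 were tested, of which CDH16 and CDH1 fell and 5 were not called. KRT8 was the most abundant, between 795.5 and 1230 CPM over all samples, and PAX8 was at 533.0 ± 70.3 CPM in controls and 594.4 ± 17.7 CPM in irradiated samples (SD, n = 5 each). Of the markers of the proximal segment itself, LRP2, encoding megalin, had 17 counts over all samples and CUBN was at 4.37 ± 0.97 CPM in controls (SD, n = 5), whereas SLC12A1, the transporter of the thick ascending limb, was between 99.9 and 399.5 CPM in controls and between 17.3 and 170.9 CPM after irradiation. In bulk RNA, fewer cells of a type and less RNA per cell cannot be told apart. Fibroblast, endothelial and podocyte markers were low beside the tubule markers, and some moved with irradiation. The 7 fibroblast markers summed to between 19.9 and 27.2 CPM in controls and 33.8 and 45.8 CPM in irradiated samples, most of it COL1A1, with LUM at 2 counts over all samples. The 5 endothelial markers summed to between 1.29 and 2.41 against 4.17 and 6.08 CPM, with PECAM1 highest on average in controls and CDH5 in irradiated samples, KDR at 2 counts and EMCN at 9. The 3 podocyte markers summed to between 6.92 and 11.7 against 10.6 and 15.55 CPM, nearly all PODXL, with NPHS1 at 8 counts. The 5 distal nephron markers summed to between 102 and 402 CPM against 18.8 and 172 CPM, nearly all SLC12A1, with UMOD at 0 counts. The part of these markers in the integrin changes was not tested.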

How the data were processed

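Bulk RNA-seq counts of 5 control and 5 irradiated samples of RPTEC/TERT1 cells were analysed. The authors trimmed reads with Trim-Galore, aligned them to GRCh38 with STAR and deposited whole-number counts per gene, without normalisation. The annotation release is not given in the sources used here. Samples were grouped by their labels and paired by replicate number, as in the study's model. Deviations from group means correlated by 0.508, 0.217, 0.338, 0.387 and 0.353 for the 5 numbers, and by -0.354 to 0.317 between different numbers. No libraries of a group were alike within counting error (chi-square per gene 6.83 to 163), and replicates 4 and 5 were the most alike in both groups.

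Genes with at least 200 counts over all samples were tested in R 4.3.3 with edgeR 4.0.16 (TMM, glmQLFit, glmQLFTest, replicate block, Benjamini-Hochberg over all genes). Ratios of subunits were compared by exact permutation. Alternatives were DESeq2 1.42.0, library size only, upper-quartile normalisation, the filterByExpr filter, a limit of 1 count, a fit with no replicate block, fits leaving out each replicate number, and the longest transcript as length. The edgeR step and the ratio test were tested on simulated data. Lengths and coordinates are from GENCODE 44 on GRCh38, and promoters from RefSeq. Protein-coding genes fully covered by exons on the other strand had 0 counts in 17 of 17 cases, against 10.7% of 12742 without such cover, so counts were read as unstranded, with reads in overlaps left out. At these depths the replicate spread sets the precision, except for genes near 200 counts.

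The members and gene lists were chosen with earlier results of these data known. The text names all members, every other subunit tested and, of the other lists, up to 4 called genes with the largest rise and 4 with the largest fall (mean of at least 1 log2 CPM), plus marker genes. Results of some genes of these lists are not reported, and counts over the lists leave them out. Genes not called, and others outside this rule (COL1A2, TLN1, TLN2, TNS4, ZYX, TGFB1), were picked after their values were seen. Plots were made in Python 3.11.15 using matplotlib 3.10.9.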

Additional observations from a re-analysis of the deposited data

Results flagged for a closer look

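A sample far from the others of its group was found in 7 of the 56 groups of 5 values examined for integrin subunits and their ratios, where chance gives about 2.8 (1 in 20). The groups are not independent, because the ratios use the counts of the same subunits. The same odd value can therefore be found more than once, and the 7 are not separate finds. In irradiated replicate 2, ITGB1 was at 1657 CPM, below the 2118 to 2247 CPM of the other irradiated samples. The ratio of ITGA2 to ITGB1 per kb was 0.127 in that sample, against 0.0948 to 0.101 in the others, and the ratio of ITGAV to ITGB6 was 0.213, against 0.279 to 0.297. In irradiated replicate 3, ITGB6 was at 421.1 CPM against 524.1 to 562.3, and ITGB5 at 310.2 CPM against 265.0 to 276.7. In control replicate 3, ITGA9 stood at 0.419 CPM, above the 0.204 to 0.258 of the remaining controls, and the ratio of ITGB6 to ITGB8 was 7.71 against 4.23 to 4.98. The causes of these values were not tested.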

How the results depend on the processing

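Of 110 combinations of a member with an alternative, 105 kept direction and call, and the 5 that changed are those of ITGB3 and ITGB4 given above. Of 53 named genes with a value under each of the 11 alternatives, 44 kept both in all of them, and ITGA9, which fell under the count limit with a replicate left out, stayed uncalled in the other 6. Without the replicate block 7 of the 10 members changed, 7 higher and 0 lower. COL4A2 (adjusted p = 0.0517) and LTBP3 (0.0572) were also lost there, and the block changed no call of a member other than ITGB3 and ITGB4. Genes changed ranged from 6529 to 9503 of those tested. ITGAE, not called, changed sign without replicate 4 or 5 (log2 fold change -0.080 to 0.027 with 1 replicate left out), as did the ratio of ITGA5 to ITGB1 without replicate 1 (log2 change -0.104 to 0.020). The number of ratios that changed was 0 with the replicate block, whose smallest p is 0.0625, and between 0 and 8 with 1 replicate left out (8 without replicate 2, 0 without any other), where the smallest p is 0.0286. Without replicate 5, 4 or 1 ITGB5 was not called (adjusted p = 0.0775, 0.0789 and 0.0549), and without replicate 5 neither was TGFBI (0.0736). All 6 ratios that passed kept their direction in each of these. Precision is limited by depth for ITGAM, with 25 counts over the controls, and for ITGA9, with 221 over all samples.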
